A study of Mus musculus with 8 samples.

Results

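The genes described are Trp53, which encodes the mouse p53 protein, and 9 genes known as p53 targets: Mdm2, Ccng1, Zmat3, Phlda3, Eda2r, Trp53inp1, Sesn1, Sesn2 and Btg2. They were chosen by name as rows of the table of normalized counts, which gave all 10 of 10 members among 34478 genes. RNA was sequenced from 4 primary lines of murine pancreatic ductal adenocarcinoma (PDAC), numbered #1, #3, #5 and #10, after culture with the solvent DMSO or after 48 h with trametinib (labelled MEKi), an inhibitor of the kinase MEK. Each line gave 1 DMSO and 1 trametinib library, 8 libraries in all, so that n = 4 lines in every comparison. All lines share the same genotype, which includes Ptf1awt/Cre and Trp53loxP/loxP. Cre driven from the pancreatic Ptf1a locus is meant to remove the floxed part of both copies of Trp53 in cells of the pancreas. The dose of trametinib was each line's own IC50, the DMSO libraries come from cells with the same alleles, and no group is labelled as free of the floxed Trp53 alleles. Whether these alleles were recombined cannot be checked from values per gene. The labels give neither the floxed exons nor whether the lines came from separate animals.

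The p53 protein is a transcription factor that is stabilised after DNA damage and other stresses and switches on genes for cell cycle arrest, DNA repair, cell death and its own degradation. Mdm2 is the ubiquitin ligase that marks p53 for degradation and is itself a p53 target, which closes a feedback loop. In pancreatic cancer the p53 gene is often lost or mutated. Many p53 targets can also be switched on by other factors, so that a target's RNA level is not a measure of p53 activity alone.

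With trametinib, 4 of the 9 members that could be tested rose and 1 fell. Trp53inp1, an adaptor protein of autophagy and cell death, rose 13.9-fold, Btg2, a transcription cofactor that holds back proliferation, 3.41-fold, Sesn2, a stress-induced inhibitor of mTORC1 signaling, 1.68-fold and Phlda3, an inhibitor of AKT, 1.34-fold. Trp53 itself fell 1.45-fold. Of 14 alternative analyses, 6 lost the call of Phlda3, 5 that of Trp53 and 1 that of Sesn2. Mdm2, Ccng1, Zmat3 and Sesn1 did not pass the test, and Eda2r was too low to be tested. Over all 15888 genes tested, 27.3% were called higher and 25.6% lower, so that a call was common in these libraries. The median log2 fold change was 0.18 over the 9 members and 0.07 over all genes tested. Regardless of direction, the median size of the change over all genes tested was 0.53 on the log2 scale. The change of Trp53 (-0.53) was thus of ordinary size, and that of Phlda3 (0.42) was smaller than this median. DMSO and trametinib libraries did not overlap for 2 members, Trp53inp1 and Btg2, and for 31.3% of all genes tested.

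**Figure D1:**
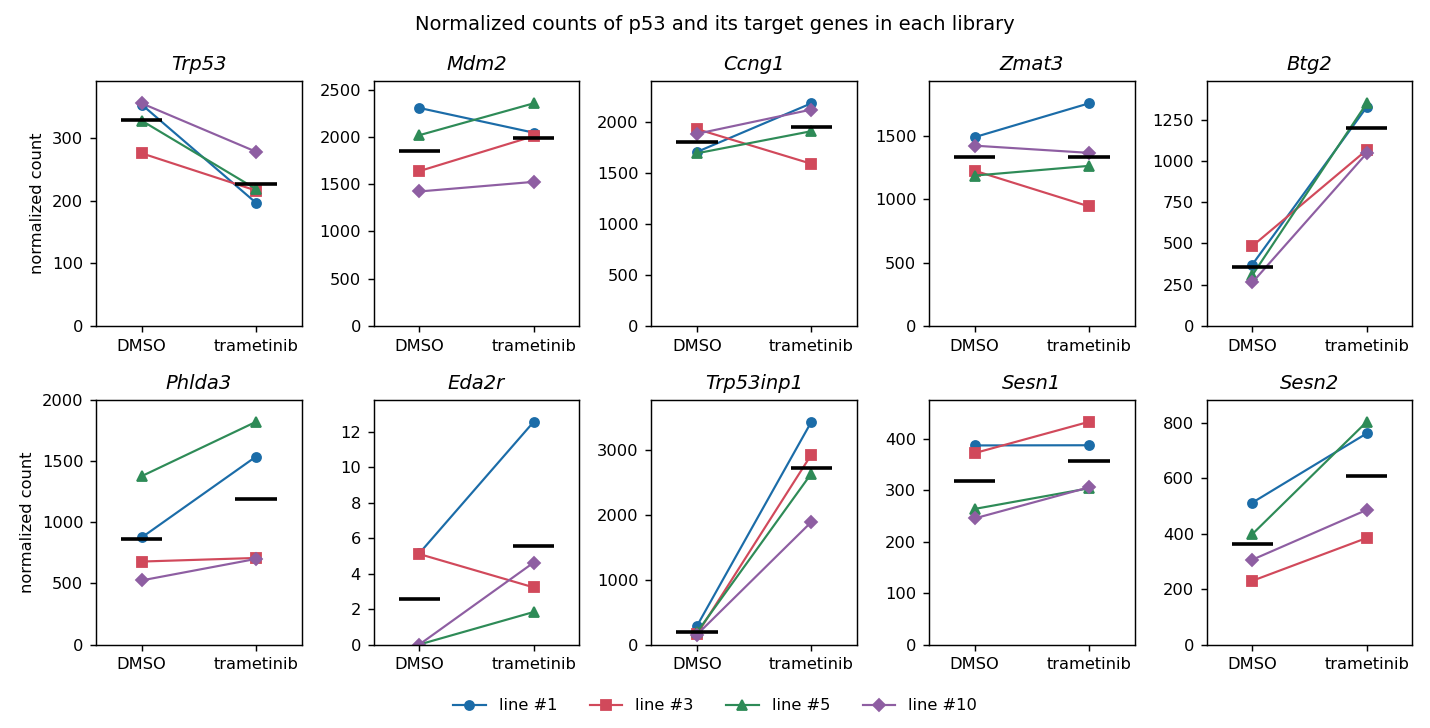
Normalized count (linear axis from 0) of each of the 10 genes in the DMSO and trametinib library of each line, with 1 coloured line and marker per cell line. Trp53inp1 and Btg2 stand higher with trametinib in every line without overlap, Trp53 is lower in every line, and the lines of Mdm2, Ccng1 and Zmat3 cross.

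The authors' normalized counts were tested as log2(value + 1) in limma. Each fit compared the 2 libraries within a line (the line entered as a block), and p-values were adjusted by Benjamini-Hochberg across all genes whose mean reached 10. A fold change on this scale understates the change of low genes. Library totals lay between 33385299 and 36385719 normalized counts in DMSO and between 30680091 and 33063309 with trametinib. Every trametinib total was thus under every DMSO total. The step between low values puts the depth at about 29300000 to 45900000 reads. Of 10 genes that MAPK signaling controls, 9 fell and none rose, with Etv4 at -5.92, Etv5 at -4.82 and Spry4 at -3.61 on the log2 scale. As markers of the carcinoma cells, the keratins Krt8, Krt18, Krt19 and Krt7 and the cadherin Cdh1 were high, whereas Epcam was listed at 0 in both libraries of lines #1, #5 and #10 and at 10.4 and 3.75 in line #3. The 7 epithelial markers summed to 221215 to 348774 in DMSO and 112485 to 220925 with trametinib, and 5 of the 6 tested fell. The 7 fibroblast markers summed to 83.5 to 351 in DMSO and 417 to 1243 with trametinib, with Lum listed at 0 in all 8 libraries. Of the 4 tested, Col1a1 was higher by 3.60 and made up most of the sum with trametinib (360 to 1110), while Col3a1 (0.53, adjusted p = 0.64 in limma), Pdgfra (0.10, adjusted p = 0.91) and Dcn (-0.01, adjusted p = 0.99) did not pass. The 5 leukocyte markers summed to 150 to 232 and 230 to 509, and the T cell marker Cd3e was at 0.49 or lower. Of the 3 tested, Csf1r was higher by 2.83, and Ptprc (0.05, adjusted p = 0.92 in limma) and Cd68 (0.23, adjusted p = 0.47) did not pass, while Cd79a, too low to be tested, was lower in 4 of 4 lines. The 4 endothelial markers summed to 30.9 to 54.6 and 62.7 to 831, of which Tek stood at 1.30 to 21.5 in DMSO and 13.5 to 805 with trametinib and reached the filter only through the trametinib libraries, and Pecam1 and Kdr did not pass. Of the 5 acinar markers, Cpa1 was listed at 0 throughout. Cela1, at 24.8 to 247 in DMSO and 15.6 to 123 with trametinib, fell by 0.73 on the log2 scale (adjusted p = 0.026 in limma), and Prss2, too low to be tested, was lower in 4 of 4 lines. The part of these shifts in the results for the members was not tested, and in bulk RNA a changed mix of cells and a changed level per cell cannot be told apart.

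RefSeq promoters of GRCm38.p6, from 250 bases before to 50 after the start, were found for 8 of the 10 members, in 9 windows. Zmat3 and Trp53inp1 had no window, so that 3 of the 4 members that rose (Btg2, Sesn2 and Phlda3) were searched. A 10-letter consensus known as the binding site of 1 p53 dimer was searched on both strands. It lay in 4 of the 9 member windows, those of Sesn1, Mdm2, Ccng1 and Trp53, and in 8.36% of 32851 promoter windows. The 4 windows are shown with the site in capitals, written along the gene's strand.
Sesn1, chr10:41887241-41887300, plus strand: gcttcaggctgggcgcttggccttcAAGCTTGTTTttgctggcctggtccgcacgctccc
Mdm2, chr10:117710910-117710969, minus strand: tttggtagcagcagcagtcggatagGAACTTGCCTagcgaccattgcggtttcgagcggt
Ccng1, chr11:40755437-40755496, minus strand: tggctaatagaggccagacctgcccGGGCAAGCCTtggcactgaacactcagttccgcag
Trp53, chr11:69580259-69580318, plus strand: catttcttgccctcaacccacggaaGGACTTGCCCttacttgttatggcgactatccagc

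The sites lie 186 to 177 bases before the start in Mdm2, 185 to 176 in Ccng1 and 75 to 66 in Trp53. In Sesn1 the site lies 173 to 164 bases before an alternative start inside the gene, far downstream of the gene's first base. Of the 3 searched members that rose, Btg2 held the cAMP response element TGACGTCA, 166 to 159 bases before its start, a motif found in 1.79% of all windows. It is shown, with the element in capitals, because it was the only motif of those searched that lay in the window of Btg2, Sesn2 or Phlda3. Since it was picked after several motifs were searched in these windows, 1.79% is not the rate of finding any such match.
Btg2, chr1:134079289-134079346, minus strand: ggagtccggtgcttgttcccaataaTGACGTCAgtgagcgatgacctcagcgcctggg

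The FOXO motif GTAAACA lay in windows of Sesn1, Mdm2 and Eda2r and in 3.65% of all windows. The E-box CACGTG lay in those of Trp53 and Eda2r and in 7.15% of all windows. The AP-1 motif TGANTCA lay in 0 of 9 member windows and in 7.81% of all. All motifs were searched on both strands. A match describes these letters only, and no binding was measured.

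Trp53 lies on chromosome 11 (GRCm38, 69580359 to 69591873, plus strand). It is the floxed gene of this model, and its RNA was found in every library. In DMSO it stood at 353 normalized counts in line #1, 275 in #3, 327 in #5 and 355 in #10. With trametinib it stood at 196, 216, 218 and 278. The level was lower in each of the 4 lines, and the groups met only where line #3 in DMSO (275) lay just under line #10 with trametinib (278).

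The mean of Trp53 was 328 ± 37.1 in DMSO and 227 ± 35.2 with trametinib (SD, n = 4), a log2 fold change of -0.53 (SE 0.15, adjusted p = 0.022 in limma). The 95% interval was -0.89 to -0.18. The change was -0.84 in line #1, -0.35 in #3, -0.58 in #5 and -0.35 in #10. The call was lost without line #1 (-0.43, adjusted p = 0.092), without line #5 (adjusted p = 0.076), without line #10 (adjusted p = 0.052), with libraries rescaled to equal totals (-0.40, adjusted p = 0.057) and without the block for the line (adjusted p = 0.070). A value per gene sums whatever exons are left, so that these counts do not show how much of the RNA could encode p53.

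The feedback genes Mdm2 and Ccng1 did not pass. Mdm2 (chromosome 10, 117688875 to 117710758, minus strand) stood at 2307, 1639, 2019 and 1424 in DMSO in the order #1, #3, #5, #10, and at 2046, 2009, 2356 and 1525 with trametinib. Line #10 was lowest under both treatments, the groups overlapped, and the change was -0.17 in line #1 against 0.29, 0.22 and 0.10 in the others. Over the 4 lines the log2 fold change was 0.11 (SE 0.10, adjusted p = 0.40 in limma), with a 95% interval of -0.14 to 0.36.

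Ccng1 (chromosome 11, 40748552 to 40755311, minus strand) encodes cyclin G1, which recruits a phosphatase to Mdm2. It stood at 1709, 1933, 1695 and 1887 in DMSO and at 2186, 1592, 1912 and 2124 with trametinib. It was the most even member between lines in DMSO, with a highest value 1.14 times the lowest. The groups overlapped, since line #3 went down by 0.28 while the other 3 went up by 0.17 to 0.35. Its mean log2 fold change was 0.11 (SE 0.12, adjusted p = 0.49 in limma), with a 95% interval of -0.18 to 0.39.

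Zmat3 and Btg2 act on RNA and transcription. Zmat3 (chromosome 3, 32334792 to 32366014, minus strand) encodes an RNA-binding zinc finger protein. It stood at 1493, 1228, 1189 and 1425 in DMSO and at 1760, 945, 1266 and 1369 with trametinib. The means were nearly the same, 1334 ± 148 and 1335 ± 336 (SD, n = 4), but the trametinib libraries spread further apart. Its log2 fold change was -0.03 (SE 0.12, adjusted p = 0.87 in limma, 95% interval -0.31 to 0.26), and its sign turned without line #3, under quantile normalization and when libraries were rescaled to equal totals.

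Btg2 (chromosome 1, 134075170 to 134079120, minus strand) is both a p53 target and an early growth-response gene. It stood at 372, 484, 308 and 264 in DMSO and at 1326, 1067, 1349 and 1047 with trametinib. Every trametinib library was higher than every DMSO library, and the line with the highest DMSO level, #3, had the smallest rise. The mean went from 357 ± 95.9 to 1197 ± 163 (SD, n = 4). The log2 fold change was 1.77 (SE 0.18, adjusted p = 0.00057 in limma), with 1.83 in line #1, 1.14 in #3, 2.13 in #5 and 1.98 in #10, and ranked 969 from the top of 15888 genes. The rise passed under all 14 alternatives.

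The other BTG and TOB genes, relatives of Btg2 in the same family, were read beside it. Of the 4 tested, 0 rose and 1 fell, against 27.3% higher and 25.6% lower over all genes tested. The gene that fell was Btg1, by 0.44 on the log2 scale (SE 0.08, adjusted p = 0.0036 in limma), a call lost without the block for the line (adjusted p = 0.27). The median of the 4 was -0.31.

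**Figure D2:**
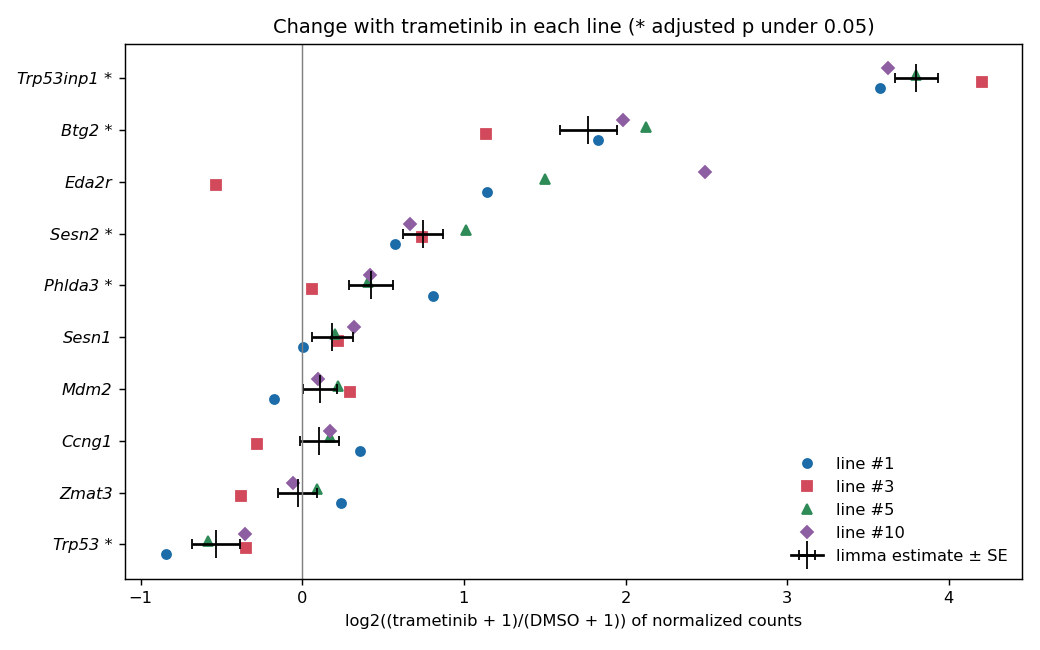
Change of each gene in each line, as log2((trametinib + 1)/(DMSO + 1)) of normalized counts, with 1 marker per line and the limma estimate ± SE as a black bar for the 9 genes tested. The points of Trp53inp1 lie between 3.57 and 4.20 and those of Btg2 between 1.14 and 2.13, while those of Mdm2, Ccng1 and Zmat3 lie on both sides of 0.

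Phlda3, Eda2r and Trp53inp1 act on AKT signaling, at the cell surface and on autophagy and death. Trp53inp1 (chromosome 4, 11156431 to 11174379, plus strand) had the largest change of the 10 genes. It stood at 287, 158, 189 and 152 in DMSO and at 3431, 2926, 2634 and 1888 with trametinib. The lowest trametinib value was far above the highest DMSO value, and line #1 was highest under both treatments. The mean went from 196 ± 62.5 to 2720 ± 645 (SD, n = 4).

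The log2 fold change of Trp53inp1 was 3.80 (SE 0.13, adjusted p = 5.7e-05 in limma), with a 95% interval of 3.48 to 4.12. It was 3.57 in line #1, 4.20 in #3, 3.80 in #5 and 3.62 in #10. It ranked 107 from the top of the 15888 genes tested. The rise passed under all 14 alternatives.

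Phlda3 (chromosome 1, 135766119 to 135769136, plus strand) stood at 876, 679, 1378 and 525 in DMSO and at 1538, 708, 1822 and 700 with trametinib. It went up in all 4 lines, by 0.81 in #1, 0.06 in #3, 0.40 in #5 and 0.42 in #10, but the lines differed more from each other than the treatments did, and the groups overlapped. In the fit the log2 fold change was 0.42 (SE 0.14, adjusted p = 0.036 in limma), with a 95% interval of 0.10 to 0.75. The call was lost without line #1 (0.29, adjusted p = 0.14), without #5 (adjusted p = 0.10), without #10 (adjusted p = 0.098), with eBayes without trend (adjusted p = 0.070), with no filter (adjusted p = 0.061) and without the block for the line (adjusted p = 0.46).

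Eda2r (chromosome X, 97333840 to 97377216, minus strand) encodes a receptor of the tumor necrosis factor family and was near the limit of detection. Its DMSO level was 5.14 in line #1 and 5.10 in line #3, which equals about 7 and 5 reads, and it was listed at 0 in lines #5 and #10. With trametinib it stood at 12.6, 3.22, 1.83 and 4.62, about 13, 3, 2 and 5 reads. A floor of 3 reads corresponds to 2.33 to 3.72 normalized counts. Both libraries of lines #1 and #3 lay above their floor, and the DMSO libraries of lines #5 and #10 lay under it. At so few reads only a large difference could be seen. With no filter on low genes the log2 fold change was 1.15 (SE 0.57, adjusted p = 0.21 in limma).

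The sestrins bind and restrain nutrient signaling to mTORC1. Sesn2 (chromosome 4, 132492032 to 132510501, minus strand) stood at 512, 230, 398 and 306 in DMSO and at 762, 385, 804 and 486 with trametinib. Every line was higher with trametinib, although the groups overlapped because line #3 with trametinib was under line #1 in DMSO. The mean went from 362 ± 122 to 609 ± 206 (SD, n = 4). The log2 fold change was 0.75 (SE 0.12, adjusted p = 0.0029 in limma), with 0.57 in line #1, 0.74 in #3, 1.01 in #5 and 0.67 in #10. Without the block for the line it did not pass (adjusted p = 0.11).

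Sesn1 (chromosome 10, 41809935 to 41908424, plus strand) stood at 387, 372, 263 and 245 in DMSO and at 387, 432, 303 and 305 with trametinib. Line #1 had the same level under both treatments and the other 3 were higher by 0.20 to 0.32. This gave a log2 fold change of 0.18 (SE 0.13, adjusted p = 0.25 in limma), with a 95% interval of -0.12 to 0.49. Sesn3, a sestrin known as a FOXO target, went from 819 ± 102 to 2248 ± 620 (SD, n = 4), a log2 fold change of 1.41 (SE 0.13, adjusted p = 0.00045 in limma).

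Baseline levels were read from the 4 DMSO libraries, 1 per line, so that the level of a line has no replicate and is given as a description. Line #1 was highest for 5 of the 8 targets tested, Mdm2, Zmat3, Trp53inp1, Sesn1 and Sesn2, and lowest for 0 of 8. Line #10 was lowest for 5 of 8, Mdm2, Btg2, Phlda3, Trp53inp1 and Sesn1, and highest for 0 of 8. Over all genes tested, line #1 was highest for 23.0% and lowest for 24.2%, and line #10 was lowest for 23.5% and highest for 26.9%. Trp53 did not follow this order, since it was highest in line #10 (355) and lowest in line #3 (275), a ratio of 1.29.

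The spread between lines was widest for Phlda3, whose highest DMSO level was 2.63 times the lowest, and for Sesn2, at 2.23 times. It was 1.89 times for Trp53inp1, 1.84 for Btg2, 1.62 for Mdm2, 1.58 for Sesn1 and 1.26 for Zmat3. Eda2r was detected in DMSO in lines #1 and #3 only, at the few reads given above. With trametinib the order changed, and line #5 was highest for 4 of the 8 targets (22.6% of all genes tested) and line #10 lowest for 4 (21.6% of all genes tested).

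**Figure D3:**
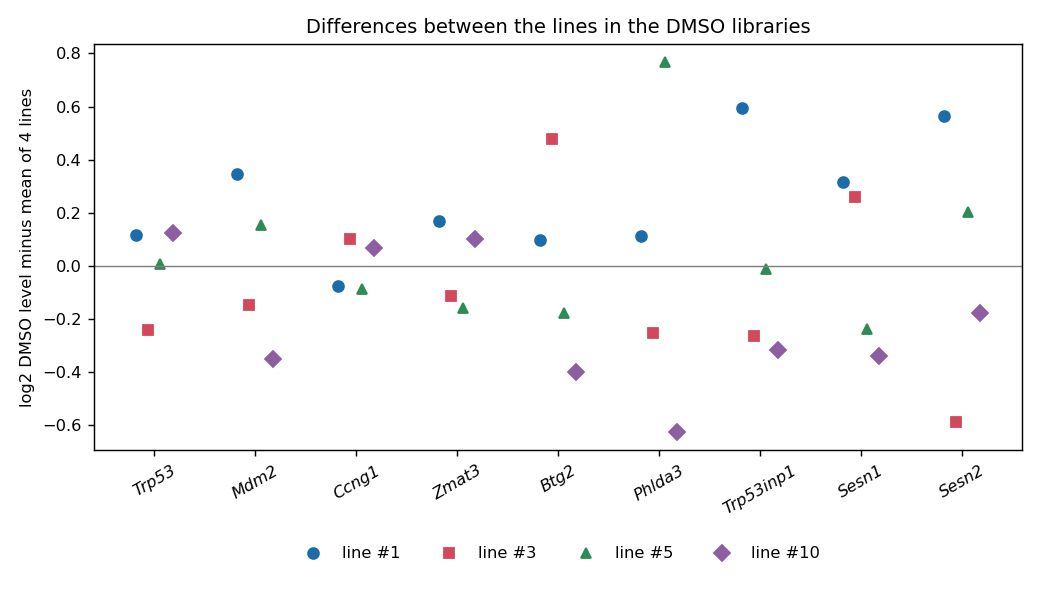
Log2 DMSO level of each gene in each line minus the mean of the 4 lines, with 1 marker per line and 0 as the mean. Line #1 lies at 0.35 for Mdm2, 0.59 for Trp53inp1 and 0.56 for Sesn2, and line #10 at -0.35, -0.32 and -0.18, while for Ccng1 no line lies more than 0.10 from the mean.

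To test the lines against each other, both libraries of a line were used and the line term of the limma fit was tested against what line and treatment left over. The 2 libraries of a line are not biological replicates of it. Lines differed for 2 of the 9 members tested, Phlda3 (adjusted p = 0.010) and Sesn2 (adjusted p = 0.018), against 27.6% of all genes tested. Trp53 had an adjusted p of 0.50, Ccng1 0.71, Btg2 0.41, Zmat3 0.11, Sesn1 0.085, Mdm2 0.062 and Trp53inp1 0.053.

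Phlda3 had the order #5, #1, #3, #10 under both treatments. Line #5 was higher than line #10 by 1.38 on the log2 scale (SE 0.19, adjusted p = 0.012 in limma), and line #1 than line #10 by 0.94 (adjusted p = 0.034) and than line #3 by 0.74 (adjusted p = 0.036). Line #3 lay below line #5, with a difference of -1.19 (adjusted p = 0.011). The neighbours #3 and #10 (0.19, adjusted p = 0.51) and #1 and #5 (-0.45, adjusted p = 0.31) did not pass.

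For Sesn2, line #1 was higher than line #3 by 1.07 (adjusted p = 0.0096 in limma), and line #3 minus line #5 was -0.93 (adjusted p = 0.017). The contrast between line #1 and line #5 did not pass (0.14, adjusted p = 0.75 in limma). The line term was lost for Phlda3 without line #5 (adjusted p = 0.061) and for Sesn2 without line #1 (adjusted p = 0.061), and for both when treatment was left out of the fit (adjusted p = 0.30 and 0.70). Without line #3, Mdm2 (adjusted p = 0.027) and Trp53inp1 (adjusted p = 0.013) passed the line term as well.

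Levels of different genes were compared per kilobase of the median coding transcript length. For Trp53 this length counts any floxed exons, so that its values per kilobase hold only if these exons are in the RNA. In DMSO the order was Phlda3 (602 ± 259 normalized counts per kilobase, SD, n = 4), Mdm2 (592 ± 126), Ccng1 (514 ± 34.6), Trp53 (182 ± 20.6), Zmat3 (174 ± 19.3), Btg2 (130 ± 34.9), Sesn2 (104 ± 35.0), Sesn1 (98.8 ± 22.7), Trp53inp1 (36.3 ± 11.6) and Eda2r (0.83). Neighbours in this order had overlapping ranges over the lines, except Ccng1 and Trp53, Sesn1 and Trp53inp1, and Trp53inp1 and Eda2r. The 3 leading genes thus stood apart from the rest. The level of Phlda3 was above 63.7% of the genes tested, that of Trp53 above 41.8% and that of Trp53inp1 above 24.5%.

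With trametinib, Trp53inp1 reached 503 ± 119 per kilobase and moved from place 9 to place 4, and Btg2 reached 436 ± 59.4. Trp53 moved from place 4 to place 8, at 126 ± 19.6. Phlda3 (831 ± 401), Mdm2 (635 ± 110) and Ccng1 (556 ± 76.3) had the highest means, but the range of Trp53inp1 over the lines overlapped those of all 3.

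**Figure D4:**
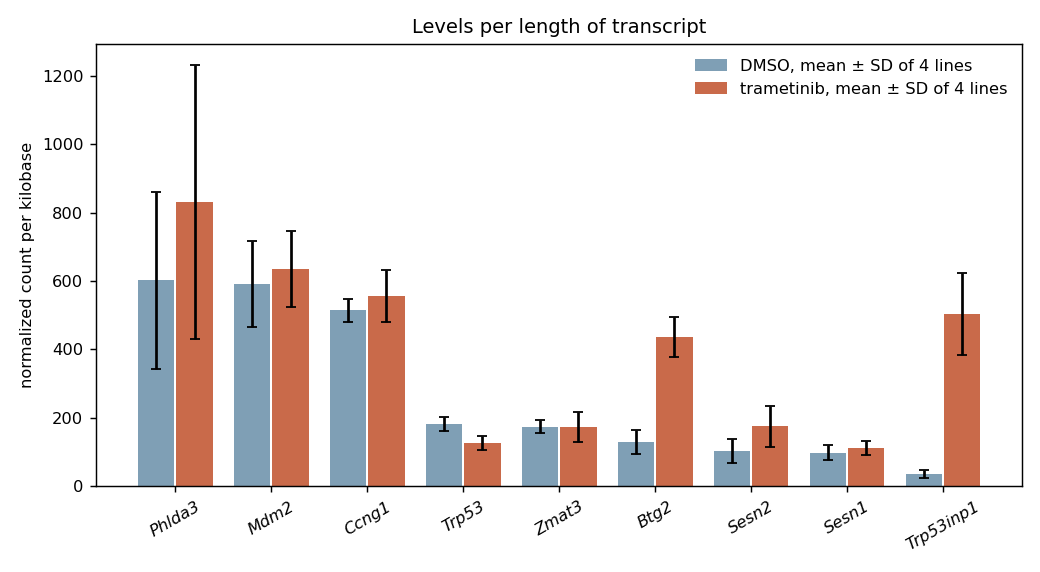
Bars (linear axis from 0) give normalized counts per kilobase of median coding transcript, mean ± SD of 4 lines, in DMSO and with trametinib. Trp53inp1 goes from 36.3 to 503 and Btg2 from 130 to 436, while Trp53, divided by a length that counts any floxed exons, goes from 182 to 126.

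A wider list of 50 known p53 targets moved both ways. Of the 47 tested, 16 rose, 14 fell and 17 did not pass, against 27.3% and 25.6% of all genes, and their median log2 fold change was 0.24. The balance depended on the scaling, with 21 higher and 11 lower at equal totals, and 13 higher and 17 lower under quantile normalization. Among 10 arrest genes 5 rose and 4 fell, among 13 death genes 4 rose and 5 fell, and among 9 metabolism and redox genes 5 rose and 3 fell. Among 5 DNA repair genes 1 rose and 0 fell, and among 10 feedback and other genes 1 rose and 2 fell.

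Fas, a death receptor, stood at 7.10, 4.25, 3.41 and 3.51 in DMSO, near the floor of 3 reads, and at 146, 15.5, 146 and 33.5 with trametinib. It reached the filter only through the trametinib libraries, so that its log2 fold change of 3.46 (SE 0.57), counted among the 16, is given without weight on its test, and it dropped out at a filter of 50. Sfn, the 14-3-3 sigma protein of the G2 checkpoint, rose by 3.07 (SE 0.25, adjusted p = 0.00033). Pmaip1, which encodes the BH3-only protein Noxa, rose by 2.38 (SE 0.11, adjusted p = 9.4e-05), from 1011 ± 167 to 5395 ± 1524 (SD, n = 4).

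The largest falls were those of Plk3, a polo-like kinase, at -1.57 (SE 0.13, adjusted p = 0.00033 in limma), Rap2b, a small GTPase, at -1.35 (SE 0.09, adjusted p = 0.00021), and Ckap2, a protein of the mitotic spindle, at -1.31 (SE 0.19, adjusted p = 0.0018). The arrest genes Gadd45a and Plk2 rose by 1.86 (adjusted p = 0.0002) and 1.52 (adjusted p = 0.0017). Bax, an effector of mitochondrial cell death, fell by 0.49 on the log2 scale (adjusted p = 0.011, and 0.064 without the block for the line), and Bbc3, which encodes Puma, had a value of 0.26 (adjusted p = 0.16) that turned sign with quantile normalization.

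Cdkn1a, the cell cycle inhibitor p21 and the best known arrest target of p53, stood at 585, 168, 214 and 567 in DMSO and at 1037, 278, 197 and 954 with trametinib. It was higher in lines #1, #3 and #10 and not in line #5. The log2 fold change was 0.54 (SE 0.19, adjusted p = 0.045 in limma), a call lost under 8 of 14 alternatives, among them leaving out line #1 (0.45, adjusted p = 0.17), #3 (0.48, adjusted p = 0.089) or #10 (0.48, adjusted p = 0.15). The lines differed (line term, adjusted p = 0.0058), with the order #1, #10, #5, #3 in DMSO, in which line #10 stood second and not last as for Mdm2 and Trp53inp1. The long noncoding RNA Trp53cor1, too low to be tested, stood at 1.55, 0, 0 and 2.88 in DMSO and at 8.81, 4.68, 7.20 and 10.6 with trametinib.

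Over the 47 wider targets in DMSO, line #1 was highest for 12 (25.5%, against 23.0% of all genes tested), #3 for 13 (27.7% against 26.5%), #5 for 14 (29.8% against 23.5%) and #10 for 8 (17.0% against 26.9%). Line #3 was lowest for 17 (36.2% against 30.7%), line #1 for 10 (21.3% against 24.2%) and line #10 for 10 (21.3% against 23.5%). These shares lay near those of all genes, and no order of the lines is read from them. The wider list thus did not repeat the order of the 8 targets, with line #1 mostly highest and line #10 mostly lowest.

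**Figure D5:**
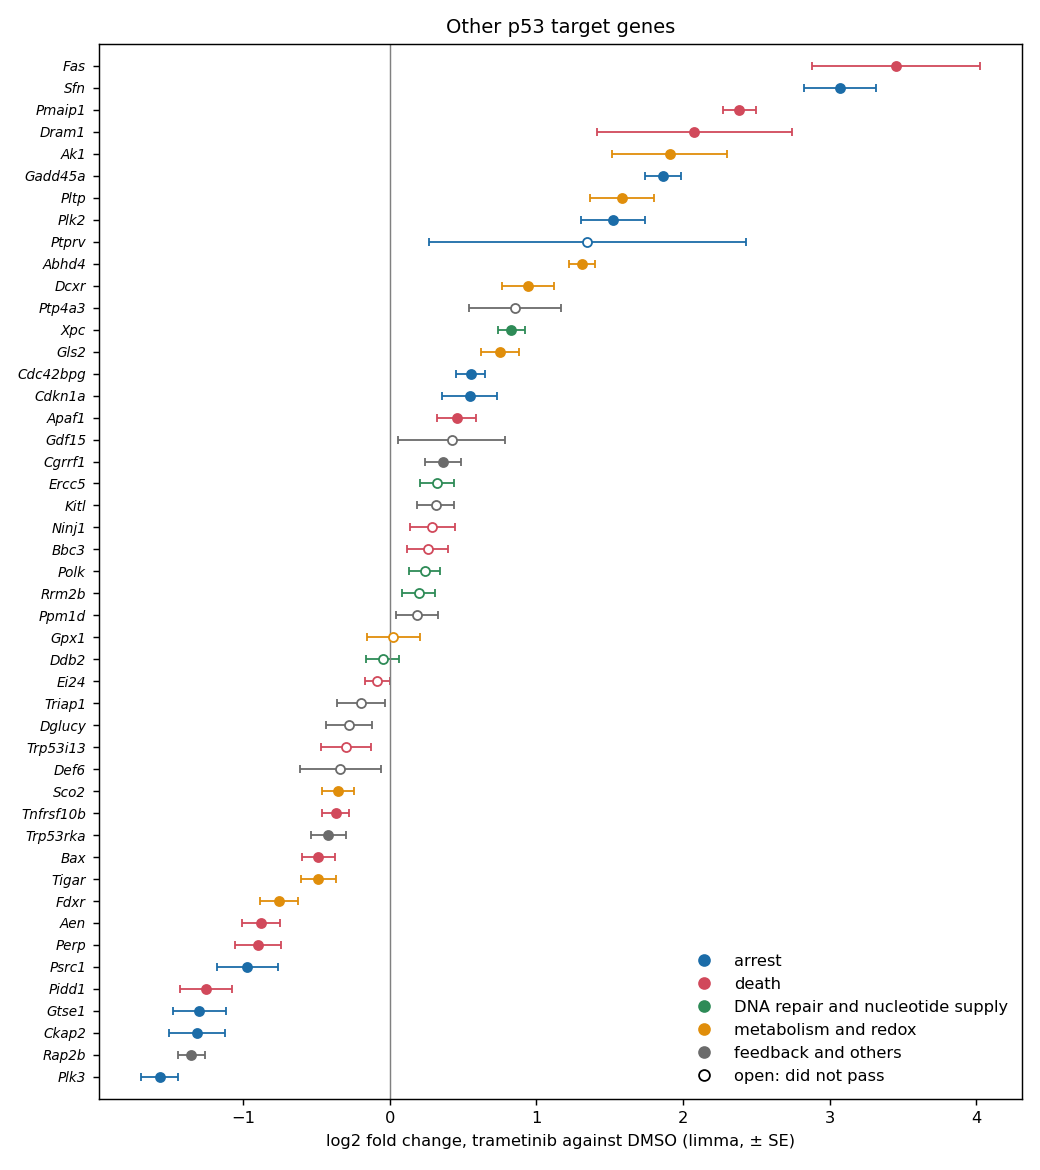
Log2 fold change (limma estimate ± SE) of each of the 47 tested genes of the wider p53 target list, coloured by role, with filled points at an adjusted p under 0.05 and open points otherwise. The values run from -1.57 for Plk3 to 3.46 for Fas, and each role except DNA repair has genes on both sides of 0 among those that passed.

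Regulators of p53 were called in both directions. Of 18 listed, 16 were tested, 5 rose, 5 fell and 6 did not pass, with a median of -0.0007. Over all genes tested 27.3% were called higher and 25.6% lower, so that the regulators lay near the background. Ppp1r13l, the inhibitor iASPP, rose by 0.57 (SE 0.10, adjusted p = 0.0029 in limma), Trp53bp1, an adaptor of the DNA damage response, by 0.54 (SE 0.13, adjusted p = 0.012), and Trim24, a ubiquitin ligase for p53, by 0.42 (SE 0.13, adjusted p = 0.031). The kinases Chek1 (-1.10, SE 0.18, adjusted p = 0.0025) and Atm (-0.48, SE 0.14, adjusted p = 0.023), which activate p53 after DNA damage, fell, as did the deubiquitinase Usp7 (-0.48, SE 0.09, adjusted p = 0.0041). The call of Atm was lost without line #1 (adjusted p = 0.069), without trend (adjusted p = 0.056) and with equal totals (-0.36, adjusted p = 0.066). That of Trim24 was lost without line #1 (adjusted p = 0.086), #3 (adjusted p = 0.056) or #10 (adjusted p = 0.10), with median centring (adjusted p = 0.079), without trend (adjusted p = 0.072) and with no filter (adjusted p = 0.055). Without the block for the line, none of these regulators passed except Chek1.

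Mdm4, the partner of Mdm2, rose by 0.32 (adjusted p = 0.033 in limma), a call lost under 6 of 14 alternatives, among them leaving out line #1 (adjusted p = 0.087), #5 (adjusted p = 0.14) or #10 (adjusted p = 0.12). Cdkn2a, whose ARF product inhibits Mdm2, stood at 6463 ± 675 in DMSO and 7376 ± 1421 with trametinib (SD, n = 4), with a value of 0.18 (adjusted p = 0.30). The relatives Trp63 and Trp73 were at most 4.14 and 1.55 normalized counts in any library.

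Lists of other factors that are known to switch on some of these genes were read beside them, against 27.3% higher and 25.6% lower over all genes tested. Of 9 FOXO targets tested, 5 rose and 0 fell, with Pik3ip1 at 3.19 (adjusted p = 0.00075 in limma), Sesn3 at 1.41 and Foxo3 at 1.29 (adjusted p = 0.00031). Of 10 ATF4 targets, 4 rose and 3 fell. Those that rose included the stress genes Chac1 (1.76), Ddit4 (1.49) and Ddit3 (1.38), and those that fell the cystine transporter Slc7a11 (-1.86) and the serine synthesis enzymes Psat1 (-1.49) and Phgdh (-1.13). Of 10 immediate early genes, 3 rose, Atf3 (2.41), Jun (1.76) and Junb (0.41), and 6 fell, among them Egr1 (-4.64), Fosl1 (-3.73) and Fos (-1.89). The call of Junb was lost without line #1 (adjusted p = 0.073), #5 (adjusted p = 0.11) or #10 (adjusted p = 0.12), without trend (adjusted p = 0.073), with no filter (adjusted p = 0.053) and with no block (adjusted p = 0.58), and that of Ddit4 with no block (adjusted p = 0.11). Btg2, itself often counted with the early genes, thus moved with Atf3 and Jun and against Egr1 and Fos.

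The genes whose log2 levels over the 8 libraries were most like those of Trp53 were Ksr1 (Pearson r = 0.98), a scaffold of the RAF and MEK kinases, and Gm14636, Fip1l1, Gm26909 and Csnk2a1 (each r = 0.96). For Trp53inp1 they were Kif1b, Zswim8 and Nrep, for Btg2 Wdfy1, Kantr and Prkd2, and for Sesn2 Pou3f1, Birc3 and Bcar1. For Phlda3 they were Sympk, Dnm2 and Gng12, for Sesn1 Gm1673, Adgrg2 and Gm3468, and for Mdm2 Selenoo, Virma and Dock1. For Ccng1 they were Lsm10, Cog5 and Them4, and for Zmat3 Hprt, Eif4ebp1 and Pi4k2a. No member was among the leading genes of another. The libraries share 4 lines and 2 treatments, so that these values describe likeness only.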

How the data were processed

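Stranded mRNA libraries of 8 samples were sequenced and quantified by the authors, who deposited a signal per gene, the normalized count, on a scale common to all libraries. The submitters' processing notes name CASAVA 2.17, Salmon 0.12, DESeq2 1.18 and the build mm10, with no role given here. All 8 columns were used. Between 40.8% and 62.4% of low values (under 20 steps) were whole multiples of the smallest step within 0.02 steps, so whole reads were not recovered and no count test was run.

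Values were tested as log2(value + 1) with limma 3.58.1 in R 4.3.3 (lmFit, eBayes with trend), with the cell line as a block, in the 15888 of 34478 genes with a mean of at least 10, at an adjusted p of 0.05. Both libraries of a number come from the same line, and their deviations from the treatment means had a correlation across genes of 0.66 on average. The fit was tested on simulated data. Fold changes per line are log2((trametinib + 1)/(DMSO + 1)). Tables were handled in Python 3.11.15. Positions and lengths are from GENCODE M21, matched by symbol, with a length for 96.3% of the genes tested. No other gene overlaps an exon of a member there. Of the listed symbols, 2 were matched by a synonym.

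One allele that all lines share is not reported here. The members and lists were chosen with earlier results of these data known. From each other list the 3 largest rises and falls were named, and for likeness the 5 genes closest to Trp53 and the 3 closest to each other member. Cdkn1a, Gadd45a, Plk2, Bax, Bbc3, Mdm4, Cdkn2a and Trp53cor1 were named after their values were seen. The 14 alternatives were other pseudocounts (0.1 and 5), filters (none, 50), scalings (equal totals, quantile, median centring), eBayes without trend or robust, no block, and leaving out each line; for the line term, no block is replaced by leaving treatment out.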

Additional observations from a re-analysis of the deposited data

Results flagged for a closer look

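For 4 members the lines moved in opposite directions, which was not tested because each line has 1 library per treatment. How often this happens over all genes was not counted, so that the number is a description only. Over the 4 lines, the log2 fold change was 0.11 for Mdm2, 0.11 for Ccng1 and -0.03 for Zmat3, and none of them passed. For Mdm2 the log2 fold change in line #1 was -0.17 against 0.29, 0.22 and 0.10 in lines #3, #5 and #10. Ccng1 had -0.28 in line #3 against 0.35, 0.17 and 0.17 in lines #1, #5 and #10. Zmat3 had -0.38 in line #3 and -0.059 in line #10 against 0.24 and 0.09 in lines #1 and #5. Eda2r had -0.53 in line #3 (5 to 3 reads) and was higher in the other lines, at 13 reads or fewer in every library. In line #5 it went from 0 to 2 reads, both under the floor of 3 reads. Of 30 groups of 4 values looked at, 0 held a library far from the others, where chance gives 1.5.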

How the results depend on the processing

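The count of 4 members that rose was 2 with no replicate block and 3 to 4 when 1 line was left out. The count of 1 that fell was 0 with no block, 0 with equal totals and 0 to 1 when 1 line was left out. Trp53inp1 and Btg2 passed under all 14 alternatives. Zmat3 reversed to 0.10 with equal totals, 0.011 with quantile normalization and 0.090 without line #3 (-0.12 to 0.090 when 1 line was left out), and Bbc3 to -0.051 with quantile normalization. Of the wider targets, 8 rose and 8 fell with no block, and 13 to 17 rose and 10 to 15 fell when 1 line was left out. With equal totals 21 of them rose and 11 fell, and with quantile normalization 13 rose and 17 fell. Which direction led thus turned with the scaling. Over all genes, quantile normalization gave 3779 higher and 4233 lower. Of the regulators, the 5 that rose became 3 with median centring, 2 without trend, 2 with no filter, 0 with no block and 2 to 4 when 1 line was left out. The 5 that fell became 2 without trend, 2 with equal totals, 3 with no filter, 1 with no block and 2 to 5 when 1 line was left out. The line term, passed by 2 members, was passed by 0 with treatment left out and by 1 to 4 when 1 line was left out. The cause of these changes was not tested. With no block for the pairing, 2205 genes of all tested were called higher and 2347 lower, against 4341 and 4075. With equal totals 5333 were higher and 3285 lower, and the median log2 fold change of all genes moved from 0.07 to 0.20. Each trametinib total lay under every DMSO total, so that this scaling raises trametinib values relative to DMSO. The line term over all genes was passed by 4391 genes, by 1879 without trend and by 206 with treatment left out. Eda2r, Trp63, Trp73 and the wider targets Trp53cor1, Rprm and Trp53i11 had a mean under 10 and were not tested. The part of depth in these low values was not tested.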
